A study of Mus musculus with 34 samples.

Results

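The genes described here are the ligands and receptors of the tumour necrosis factor (TNF) superfamily whose symbols start with Tnfsf (ligands) or Tnfrsf (receptors). They were taken from the gene names of the series, leaving out 5 symbols (Tnfrsf4, Tnfrsf18, Tnfrsf10b, Tnfrsf11a and Tnfsf11) and requiring 20 or more UMIs (unique molecular identifiers, 1 per captured RNA molecule) over 10 single-cell matrices. Of 32285 genes, 32 carried such a symbol and 27 were kept, with 10 ligands, 16 receptors and Tnfsf13os, a transcript from the strand opposite Tnfsf13. Their summed counts ran from 29 UMIs for Tnfrsf17 to 68430 UMIs for Tnfrsf9, and none of the 27 fell under the minimum.

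The series has 34 samples, of which 10 sorted single-cell libraries from MMTV-Wnt1 tumours are compared here. These are mammary cancers in which the mouse mammary tumour virus promoter drives Wnt1, and they were transplanted into C57BL6j mice. Doxorubicin, a chemotherapy drug that damages DNA, was given as 5 consecutive doses of 4 mg/kg. The CD45-positive immune sort has 2 untreated libraries and 2 libraries collected 48 h after the last doxorubicin dose. The CD4/8-positive T cell sort has 1 library per group. Its groups are untreated tumours, tumours 48 h after doxorubicin, and 4 groups in which antibody treatment began 48 h after doxorubicin, with 3 doses given every 72 h and tumours taken 24 h after the last. These 4 received 400 ug of IgG control, 200 ug of anti-PD1 with 200 ug of IgG, 200 ug of anti-CTLA4 with 200 ug of IgG, or 200 ug of each of the 2 antibodies. Both antibodies target receptors that restrain T cells. A table of unsorted tumour cells pools an untreated and a doxorubicin tumour without saying which cell came from which, so it is used for levels only. The labels do not state sex, age, or whether the replicate libraries came from separate animals, so p-values measure the spread between these libraries, which may be technical.

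TNF superfamily ligands are mostly trimeric proteins of the cell surface, some of which are also shed, and they cluster receptors on the same or a neighbouring cell. Receptors with a death domain can recruit caspase-activating complexes, whereas most others bind TRAF adaptor proteins and activate NF-kB. In tumours and lymphoid tissue the family is known for T cell co-stimulation, B cell survival, and inflammatory or death signals to epithelial cells.

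Cells were sorted into types in the data by sets of marker genes that hold no member of the family, called gates below. In each of the 4 gates tested below, all markers of the gate's own list had UMIs in every library. Neutrophils made up 10.2 and 5.62% of cells in the untreated CD45 libraries and 58.5 and 49.7% in the doxorubicin libraries, and macrophages or monocytes 31.0 and 37.7% against 12.1 and 16.7%. Although sorted, the libraries held epithelial (tumour) cells, at 4.93 to 16.2% of cells in the CD45 sort and 4.35 to 26.2% in the CD4/8 sort. The depth was 16908180 to 93748407 UMIs per library. The 4 gates with at least 30 cells in each of the 4 CD45 libraries were neutrophils, macrophages or monocytes, T cells and epithelial cells. Levels below are UMIs per 10000 UMIs of a gate, listed for untreated libraries 1 and 2 and then doxorubicin libraries 1 and 2. They compare the share of a gene between gates, not one gene with another. Median depth in the CD45 libraries was 2979.5 to 4680 UMIs per cell in neutrophils and 8370.5 to 15368 in macrophages or monocytes. It was 6546.5 to 10498.5 in T cells and 14943 to 41667 in epithelial cells. A higher level in a gate is therefore not necessarily more UMIs per cell.

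The family was spread over all 4 gates, with ligands highest mostly in macrophages and T cells and receptors in every gate. By the mean over the 4 CD45 libraries, 6 of the 10 ligands were highest in the macrophage or monocyte gate, 3 in the T cell gate and 1 in the neutrophil gate. The 16 receptors were highest in neutrophils (5), T cells (4), macrophages (4) and epithelial cells (3), and Tnfsf13os in epithelial cells. The place of Tnfrsf17 among the macrophage receptors rests on at most 6 UMIs per library, and its range overlapped that of T cells. For 15 of the 27 the libraries of the highest gate did not overlap those of the next gate. The share of all genes without such overlap was not computed, so this count cannot be read as a trait of the family. Each gate was then tested against the log-scale mean of the other 3, with the library as a block, so that a gene near 0 in 1 gate can pass in several others. The test covered 25 members, since Tnfrsf17 (the B cell maturation receptor BCMA) and Tnfsf18 (the ligand GITRL) had too few counts.

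**Figure D1:**
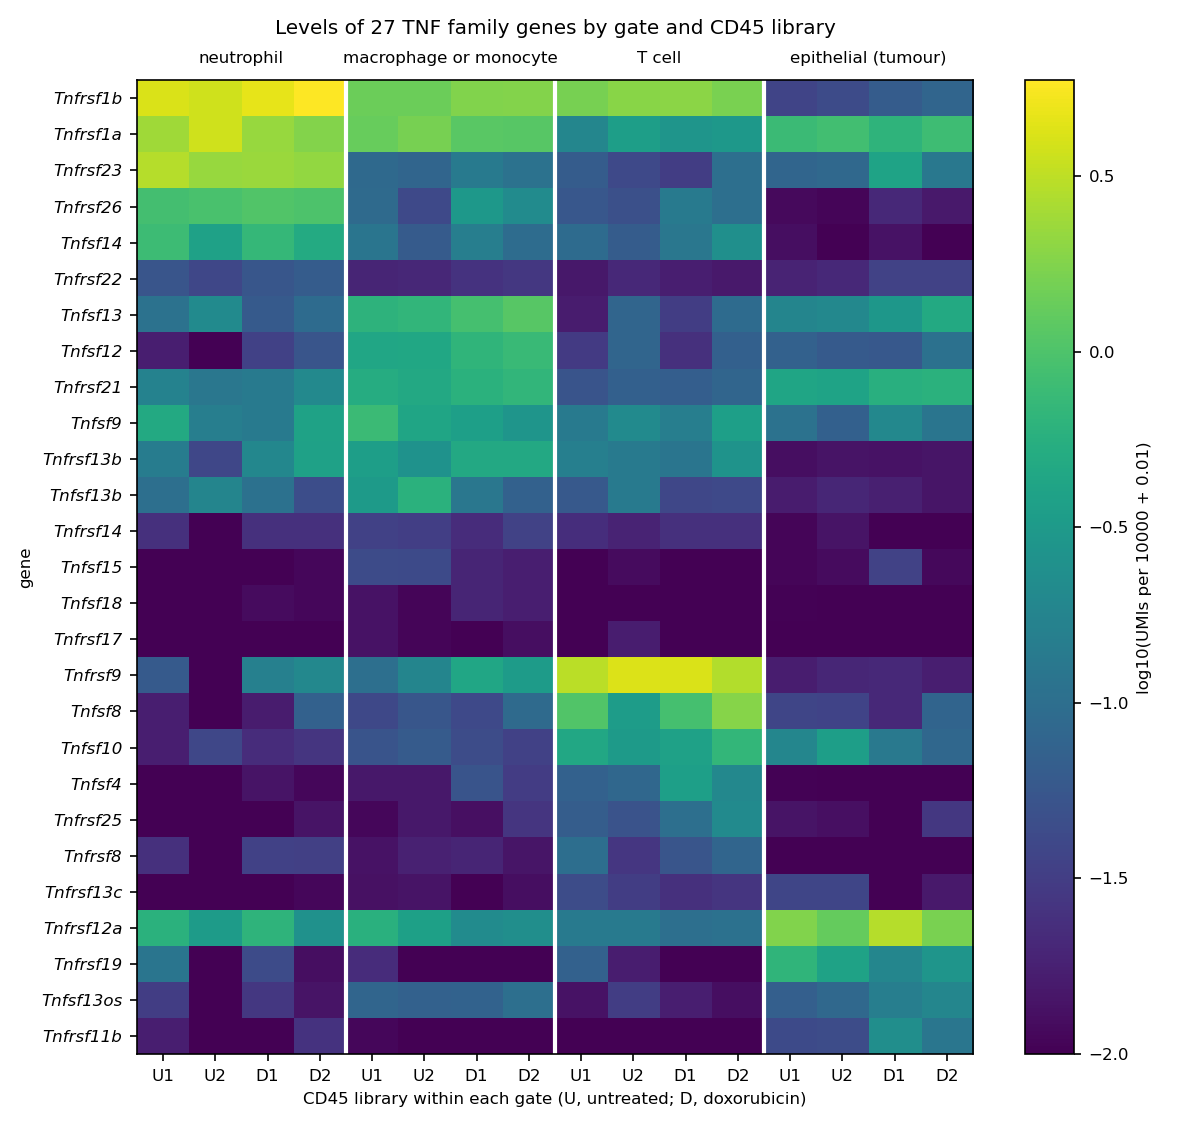
Levels of the 27 genes (rows, ordered by their highest gate) in the 4 CD45 libraries of each of 4 gates (columns; U, untreated; D, doxorubicin), with the colour giving log10 of UMIs per 10000 plus 0.01. Blocks of high genes follow the gates, with Tnfrsf1b, Tnfrsf23 and Tnfrsf26 in neutrophils, Tnfsf12 and Tnfsf13 in macrophages, Tnfrsf9 and Tnfsf8 in T cells and Tnfrsf12a and Tnfrsf19 in epithelial cells.

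Neutrophils stood out by a group of receptors and by the ligand Tnfsf14. In this gate 10 members were higher and 6 lower than in the other gates, in a contrast that called 54.5% of all 13751 genes tested (27.6% higher and 26.9% lower). Tnfrsf23, which encodes a mouse decoy receptor for the death ligand TRAIL, was at 2.90, 2.21, 2.24 and 2.11 UMIs per 10000 in neutrophils, against 0.0217 to 0.391 in the libraries of the other 3 gates. Every neutrophil value thus lay above every value elsewhere, and the fitted difference was a log2 value of 5.14 ± 0.29 (SE, adjusted p = 6.78e-09). Tnfrsf26, its neighbour on chromosome 7, was at 0.859, 0.929, 1.03 and 0.988 in neutrophils and at most 0.293 in the other gates, again without overlap (log2 difference 5.33 ± 0.27, adjusted p = 5.92e-10). Tnfrsf22, the other decoy receptor of this cluster, had a log2 difference of 2.26 ± 0.33 (adjusted p = 2.85e-05) at levels of 0.0290 to 0.0535. Tnfsf14, the ligand LIGHT, which co-stimulates T cells through Tnfrsf14, was at 0.780, 0.377, 0.694 and 0.486 in neutrophils and at most 0.232 elsewhere (log2 difference 4.75 ± 0.27, adjusted p = 1.35e-09).

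Both receptors of TNF itself also made up their highest share of UMIs in neutrophils. Tnfrsf1b, the TNF receptor TNFR2 without a death domain, was at 4.15, 3.69, 4.62 and 5.91 in neutrophils, at 1.61 to 1.94 in T cells and at 1.39 to 1.78 in macrophages. It ran from 0.0270 to 0.0700 in epithelial cells, so that the receptor was low in that gate only (log2 difference -6.03 ± 0.24, adjusted p = 4.77e-11) and called higher in each of the 3 immune gates. Tnfrsf1a, the death domain receptor TNFR1, was at 2.37, 3.71, 2.19 and 1.79 in neutrophils, 1.11 to 1.59 in macrophages, 0.633 to 0.839 in epithelial cells and 0.178 to 0.345 in T cells. These 4 ranges did not overlap, and the order of gates was the same in each library. The remaining members higher in neutrophils were Tnfrsf8, Tnfrsf13b, Tnfsf13b and Tnfrsf14, with log2 differences of 1.38 to 2.72. The fitted value of Tnfrsf8 depends on the prior count because the epithelial gate held none of its UMIs. The call of Tnfrsf14 (adjusted p = 0.0402) was lost without any 1 of 3 libraries (CD45 untreated 1 or either doxorubicin library, adjusted p = 0.114 to 0.208), and also with RLE scaling, which replaces edgeR's TMM (0.0614), or no filter on low counts (0.0675). Lower in neutrophils were Tnfrsf25, Tnfsf10, Tnfsf4, Tnfsf8, Tnfsf12 and Tnfsf13os. Of these, Tnfsf4 (adjusted p = 0.0437) was lost without untreated 1 (0.944) or doxorubicin 2 (0.0520) and with no filter on low counts (0.0590). Tnfsf13os (0.0490) was lost without untreated 2 (0.0935) or doxorubicin 2 (0.194), at 1000 UMIs per cell (0.0519) and with a stricter gate of 4 markers (0.0554). Of 45 other genes of the pathway, 25 were higher and 4 lower in neutrophils, led by Birc3 (3.16 ± 0.14), Fas (3.07 ± 0.17) and Tnfaip3 (2.43 ± 0.17 on the log2 scale).

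The promoter windows of Tnfrsf23 and Tnfsf14, the most neutrophil-biased receptor and ligand with a window in the RefSeq table, are shown as examples. Each sequence is a 300-base window of build GRCm38.p6, read along the gene's own strand. It runs from 250 bases before to 50 after the start assigned to the window, which need not be the outer end of the gene. The Tnfrsf23 window lies wholly within the limits of the gene (143665807 to 143686436), whereas the Tnfsf14 window spans the start of its gene (57194181). Capitals mark matches to 4 motifs searched on both strands: GAGGAA (Ets family), TTGCNNAA (C/EBP family), TGANTCA (AP-1) and the NF-kB motif.
Tnfrsf23, chr7:143685826-143686125, minus strand: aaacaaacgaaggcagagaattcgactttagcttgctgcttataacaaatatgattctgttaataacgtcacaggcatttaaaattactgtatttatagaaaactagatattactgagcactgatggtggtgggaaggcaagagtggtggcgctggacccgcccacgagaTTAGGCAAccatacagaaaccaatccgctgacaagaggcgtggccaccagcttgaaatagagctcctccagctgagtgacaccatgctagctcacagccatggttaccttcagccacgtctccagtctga
Tnfsf14, chr17:57194132-57194431, minus strand: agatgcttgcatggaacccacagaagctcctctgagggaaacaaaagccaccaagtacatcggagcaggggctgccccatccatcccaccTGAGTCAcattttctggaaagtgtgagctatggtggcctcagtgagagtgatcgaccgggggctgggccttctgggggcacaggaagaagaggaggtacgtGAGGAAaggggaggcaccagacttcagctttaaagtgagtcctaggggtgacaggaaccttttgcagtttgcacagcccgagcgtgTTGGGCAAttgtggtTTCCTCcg
The Tnfrsf23 window holds 1 match to the C/EBP motif, and the Tnfsf14 window holds matches to C/EBP (1), AP-1 (1) and Ets (2). Among 32851 promoter windows, 28.3% held the Ets letters, 10.8% the C/EBP letters, 7.81% the AP-1 letters and 8.46% the NF-kB letters. The table held 24 windows for 20 of the 27 members, and 8 of them held Ets, 3 C/EBP, 6 AP-1 and 3 NF-kB letters. A match is a description of letters, not evidence that a factor binds.

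Tnfrsf26, Tnfrsf22 and Tnfrsf23 lie next to each other on chromosome 7 (143607685 to 143686436 in GRCm38), with gaps of 6.96 and 16.1 kb. They encode similar proteins, so reads may be split between them. The 2 abundant genes were not used in a fixed proportion. In the neutrophil gate the CD45 libraries had 3.38, 2.38, 2.18 and 2.13 UMIs of Tnfrsf23 for each UMI of Tnfrsf26. In the epithelial gate the ratio was 42.2, 77.0, 35.7 and 21.0, with only 1 to 5 UMIs of Tnfrsf26 per library. In macrophages it was 0.969 and 2.27 in the untreated libraries and 0.442 and 0.490 after doxorubicin. The 3 gates therefore did not overlap within either treatment. Across treatments the lowest neutrophil ratio (2.13) lay under the highest macrophage ratio (2.27). In macrophages Tnfrsf26 had more UMIs than Tnfrsf23 in both doxorubicin libraries and in untreated library 1 (127 against 123). The T cell gate, at 1.17, 0.824, 0.167 and 1.0, overlapped macrophages. Of the 8 pairs of members lying within 100 kb of each other, 3 shared their highest gate, 2 of them in this cluster.

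Macrophages or monocytes carried the largest number of ligands. In this gate 14 members were higher and 4 lower, where 52.3% of all genes were called (27.8% higher and 24.6% lower). Tnfsf12, the ligand TWEAK, was at 0.428, 0.443, 0.635 and 0.750 in macrophages and at most 0.0994 in the other 3 gates (log2 difference 3.77 ± 0.23, adjusted p = 5.27e-09). Tnfsf13, the B cell factor APRIL encoded 0.685 kb away, was at 0.610, 0.651, 0.900 and 1.13, above the 0.172 to 0.472 of epithelial cells and the 0.00615 to 0.203 of the other gates (3.15 ± 0.31, adjusted p = 1.54e-06). Neither gene overlapped another gate. They lie on chromosome 11 (69682577 to 69696098) together with Tnfsf13os, whose limits overlap those of both. The counting strand is not stated, so how far reads of Tnfsf13os were kept apart from theirs is not known. Tnfsf15, the ligand TL1A, was low, at 0.0329, 0.0316, 0.00925 and 0.00708 (4.09 ± 0.79, adjusted p = 0.000524). It overlapped the epithelial gate, where doxorubicin library 1 reached 0.0256 on 7 UMIs.

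The B cell survival ligand Tnfsf13b (BAFF) was at 0.310, 0.584, 0.117 and 0.0623 in macrophages (2.80 ± 0.23, adjusted p = 9.34e-08), and its receptor Tnfrsf13b (TACI) at 0.352, 0.246, 0.462 and 0.457 (2.99 ± 0.22, adjusted p = 2.57e-08). Both overlapped the neutrophil gate, where Tnfsf13b ran from 0.0352 to 0.174 and Tnfrsf13b from 0.0290 to 0.376. The promoter window of Tnfsf13b is printed because this gene also differed with treatment within the gate, and it is the first of 2 windows given for the gene. Most of this window lies within the gene, whose limits begin at 10006229.
Tnfsf13b, chr8:10006217-10006516, plus strand: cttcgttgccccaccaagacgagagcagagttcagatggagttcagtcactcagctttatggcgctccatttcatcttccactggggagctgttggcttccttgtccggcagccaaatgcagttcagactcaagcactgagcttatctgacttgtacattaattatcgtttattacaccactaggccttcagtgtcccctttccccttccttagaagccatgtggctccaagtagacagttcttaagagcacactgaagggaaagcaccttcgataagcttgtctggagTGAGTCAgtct
Its capitals mark 1 match to the AP-1 letters. Tnfsf9, the ligand of CD137, was at 0.764, 0.413, 0.354 and 0.266 in macrophages and overlapped neutrophils (0.128 to 0.477) and T cells (0.127 to 0.355). Tnfrsf21, the death receptor DR6, was at 0.458 to 0.653 in macrophages and at 0.396 to 0.577 in epithelial cells, so those gates overlapped while neutrophils and T cells stayed at or under 0.194. The macrophage calls of Tnfrsf26 and Tnfsf8 were lost without 1 library (doxorubicin 2 for both, adjusted p = 0.0753 and 0.717). That of Tnfrsf26 was also lost with DESeq2 (0.0540). That of Tnfsf8 held in only 3 of 9 alternatives, being lost too without untreated 1 (0.183) or doxorubicin 1 (0.0730), with DESeq2 (0.0594), with no filter on low counts (0.0787) and at 1000 UMIs per cell (0.0509). Of 45 other pathway genes 16 were higher and 11 lower, among them Cd40 (4.58 ± 0.24) and Ltbr (2.01 ± 0.19) higher and Traf4 (-3.65 ± 0.21) lower.

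T cells held the highest level of several co-stimulatory members. In this gate 10 members were higher and 9 lower, where 56.5% of all genes were called (27% higher and 29.5% lower). Tnfrsf9, the co-stimulatory receptor CD137, was at 3.01, 4.22, 4.13 and 2.85 in T cells and at most 0.425 in the other gates (log2 difference 5.71 ± 0.28, adjusted p = 1.47e-09). Tnfsf8, the ligand of the CD30 receptor, was at 1.04, 0.330, 0.888 and 1.85 and at most 0.0807 elsewhere (4.74 ± 0.28, adjusted p = 5.79e-09). Tnfsf4, the ligand OX40L, was at 0.0624, 0.0743, 0.361 and 0.185 and at most 0.0432 elsewhere (5.88 ± 0.30, adjusted p = 4.13e-10). Each of the 3 lay above all values of the other gates. Tnfrsf25, the death domain receptor of Tnfsf15, was likewise free of overlap, at 0.0415 to 0.204 in T cells against at most 0.0182 (4.52 ± 0.37, adjusted p = 1.04e-07). Tnfsf10, the death ligand TRAIL, was at 0.453, 0.311, 0.376 and 0.677 in T cells and overlapped epithelial cells, at 0.178, 0.350, 0.121 and 0.0742. It stayed at or under 0.0529 in macrophages and neutrophils. Tnfrsf8, which is CD30 itself, was at 0.0896, 0.0175, 0.0433 and 0.0699 (4.14 ± 0.50, adjusted p = 1.93e-05). The lower call of Tnfrsf11b in T cells (adjusted p = 0.0303) was lost without untreated 1 (1), untreated 2 (0.0742) or doxorubicin 2 (0.111), and no T cell gate of the CD45 sort held a UMI of it, which allows levels of up to 0.00263 to 0.0217 per library (3 counts). Of 45 other pathway genes 18 were higher and 8 lower, led by the ligands Fasl (6.35 ± 0.23) and Cd40lg (7.85 ± 0.38).

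Among the 4 tested gates, epithelial tumour cells carried 3 receptors at their highest level. Here 7 members were higher and 13 lower, where 69% of all genes were called (38.1% higher and 30.9% lower). Tnfrsf12a, the TWEAK receptor Fn14, was at 1.75, 1.30, 2.92 and 1.62, against 0.0939 to 0.631 in the immune gates (2.59 ± 0.22, adjusted p = 1.03e-07). Tnfrsf19, the receptor TROY, was at 0.634, 0.382, 0.179 and 0.272 against at most 0.108 (4.95 ± 0.48, adjusted p = 6.94e-07). Tnfrsf11b, the soluble decoy receptor osteoprotegerin, was at 0.0320, 0.0340, 0.223 and 0.113 against at most 0.0156 (6.06 ± 0.67, adjusted p = 5.35e-06). None of the 3 overlapped an immune gate. Tnfrsf13c, Tnfrsf21, Tnfsf10 and Tnfsf13os were called higher with log2 differences of 1.08 to 2.19. Leaving out 1 library removed the calls of Tnfrsf13c (untreated 1, adjusted p = 0.179, or untreated 2, 0.0819) and Tnfsf10 (untreated 1, 0.0734, or doxorubicin 1, 0.0521). It also removed the lower calls of Tnfsf8 (doxorubicin 2, 0.0552) and Tnfrsf23 (untreated 1, untreated 2 or doxorubicin 2, 0.110 to 0.122). The lower call of Tnfrsf23 was lost too with RLE scaling (0.0572), DESeq2 (0.0620) and no filter on low counts (0.0668). Of 45 other pathway genes 4 were higher and 35 lower, with Traf4 (2.16 ± 0.15) among the higher and Tnfaip3 (-4.06 ± 0.24) and Rel (-3.78 ± 0.22) among the lower.

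Set side by side as known ligand and receptor pairs, some partners had the same highest gate of the 4 tested and others did not. Tnfsf12 was highest in macrophages and its receptor Tnfrsf12a in epithelial cells. Tnfsf15 was highest in macrophages and its receptor Tnfrsf25 in T cells, and the same held for Tnfsf9 and Tnfrsf9. Tnfsf14 was highest in neutrophils, and its receptor Tnfrsf14 in macrophages at 0.0123 to 0.0255, where it overlapped T cells (0.00875 to 0.0144). Tnfsf8 and Tnfrsf8 were both highest in T cells, as their CD4 and CD8 subsets show in more detail below. Tnfsf13 and Tnfsf13b were highest in macrophages, and so was their receptor Tnfrsf13b (0.246 to 0.462, overlapping neutrophils at 0.0290 to 0.376). Their receptor Tnfrsf17 had too few UMIs to place, with means of 0.00191 in macrophages and 0.00164 in T cells. It was at most 0.00379 in macrophages (6 UMIs) and reached 0.00656 in T cells of CD45 untreated 2 (3 UMIs). Tnfrsf13c, the other receptor of Tnfsf13b, had its highest mean of the 4 gates in T cells. Tnfsf10 was highest in T cells, its decoy receptor Tnfrsf11b in epithelial cells and its mouse decoy receptors Tnfrsf22 and Tnfrsf23 in neutrophils. These are RNA levels, and contact between cells or protein was not measured.

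Doxorubicin was compared first over whole CD45 libraries, which asks what share of the UMIs of all kept cells each RNA made up. In such sums more cells of a type and more RNA per cell cannot be told apart. The 3 members that rose were all highest in neutrophils, whose share of cells was also larger and whose marker list summed to 218.0 and 155.9 per 10000 after doxorubicin against 9.83 and 13.4 in untreated libraries. Of 25 members tested, 3 were called higher and none lower, where 5.5% of all 16068 genes were called (3.24% higher and 2.26% lower). Tnfrsf26 went from 0.0514 and 0.0449 UMIs per 10000 in the untreated libraries to 0.413 and 0.332 after doxorubicin (log2 change 2.84 ± 0.24, adjusted p = 0.00953). Tnfrsf23 went from 0.137 and 0.116 to 0.842 and 0.650 (2.45 ± 0.24, adjusted p = 0.0124). Tnfsf14 went from 0.0685 and 0.0394 to 0.270 and 0.186 (1.97 ± 0.36, adjusted p = 0.0411), and its call was lost without doxorubicin library 1 (0.123) or 2 (0.0526). The treated and untreated libraries did not overlap for any of the 3. The share of all genes without such overlap was not computed, here or in the gates below. Lack of overlap between so few libraries is therefore a description and adds nothing to the tests. The median log2 change was 0.34 over the 25 members and -0.02 over all genes tested. Of 46 other pathway genes 5 rose and 1 fell, namely Eda2r (4.86 ± 0.45), Fas (2.03 ± 0.18), Birc3 (1.32 ± 0.19), Nfkbia and Tnip1 upwards and Cd40 (-1.86 ± 0.20) downwards.

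Within the neutrophil gate none of these 3 members passed the test. Tnfrsf23 was at 2.90 and 2.21 untreated and 2.24 and 2.11 after doxorubicin (-0.40 ± 0.30), Tnfrsf26 at 0.859 and 0.929 against 1.03 and 0.988 (0.01 ± 0.31), and Tnfsf14 at 0.780 and 0.377 against 0.694 and 0.486 (-0.18 ± 0.36). For Tnfrsf23 and Tnfsf14 the groups overlapped, and for Tnfrsf26 they differed by less than 1 SE of the fitted change. Neutrophil cells supplied 43.1 and 18.1% of all Tnfrsf23 UMIs in the untreated libraries and 78.0 and 71.3% in the doxorubicin libraries. The shares for Tnfsf14 were 23.1 and 9.09% against 75.3 and 57.6%, and for Tnfrsf26 34.0 and 19.6% against 72.9 and 65.5%. None of 12 members tested within neutrophils was called, at a background of 0% of 8997 genes by edgeR, where 722 genes and no member had an unadjusted p under 0.05. DESeq2 called 106 genes and no member. The 2 untreated libraries held 366 and 101 neutrophils and the 2 doxorubicin libraries 866 and 1985.

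**Figure D2:**
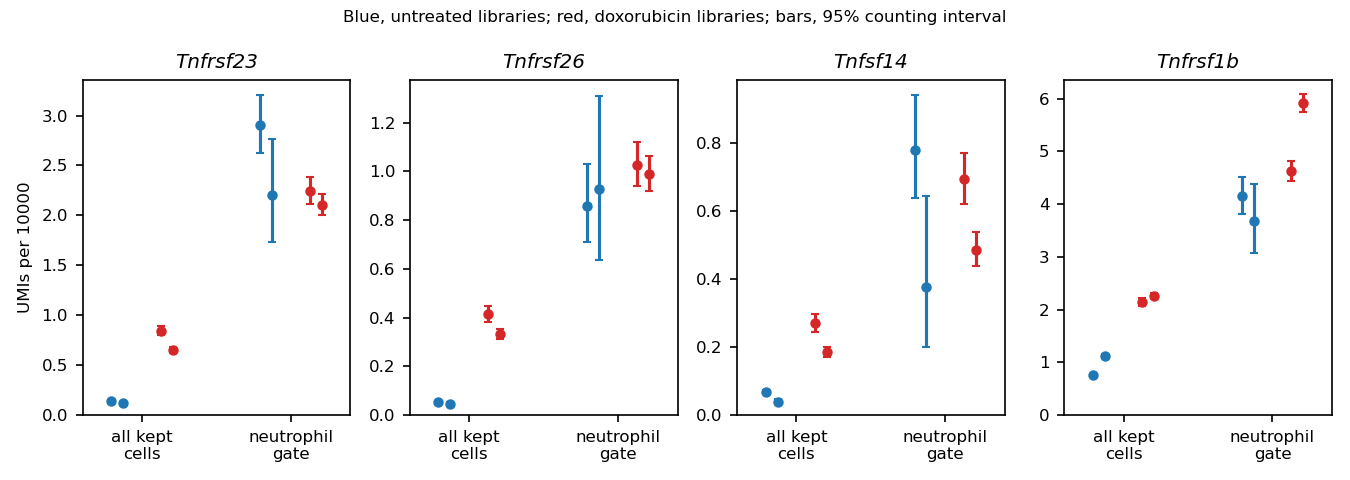
Levels of 4 genes (UMIs per 10000, linear axis from 0) over all kept cells and within the neutrophil gate, with 1 point per CD45 library (blue untreated, red doxorubicin) and bars for the 95% counting interval. Over all cells the red points of Tnfrsf23 (0.842 and 0.650) lie above the blue ones (0.137 and 0.116), whereas in the neutrophil gate both colours lie between 2.11 and 2.90.

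In the macrophage or monocyte gate of the CD45 libraries, Tnfsf13b and Tnfrsf12a fell and Tnfrsf26 rose with doxorubicin. Of 16 members tested, 2 were thus lower and 1 higher, where 6.62% of all 11079 genes were called (3.33% higher and 3.29% lower). Tnfsf13b, the B cell survival ligand whose promoter is printed above, was at 0.310 and 0.584 untreated and at 0.117 and 0.0623 after doxorubicin, and it fell by 2.44 on the log2 scale (SE 0.44, adjusted p = 0.0319). Tnfrsf12a was at 0.566 and 0.368 against 0.210 and 0.224, and it fell by 1.16 (SE 0.24, adjusted p = 0.0288). Tnfrsf26 was at 0.0803 and 0.0305 against 0.293 and 0.208, and it rose by 2.07 (SE 0.45, adjusted p = 0.0471). The groups overlapped for none of the 3, which is a description only. Leaving out doxorubicin library 1 or 2 ended each call, with adjusted p of 0.124 and 0.187 for Tnfsf13b, 0.191 and 0.173 for Tnfrsf12a and 0.251 and 0.172 for Tnfrsf26. Without untreated library 1 the call of Tnfrsf12a was also lost (0.0558). That of Tnfsf13b was lost with the replicate number as a block (0.117), and that of Tnfrsf26 at 1000 UMIs per cell (0.0510) and with the stricter gate (0.0583). Tnfrsf26 entered this test because its mean over the 4 libraries (0.153) reached 0.1 of that in neutrophils (0.951). In the untreated libraries alone it lay under 0.1 of the neutrophil levels. The doxorubicin libraries, where it was higher, thus admitted it, and its call is not independent of this filter. Tnfrsf12a entered because its mean over the 4 libraries (0.342) reached 0.1 of that in epithelial cells (1.90). In the doxorubicin libraries alone its mean lay under 0.1 of the epithelial mean. The untreated libraries thus admitted it, and its call is likewise not independent of the filter. Epithelial cells were 16.2 and 9.63% of cells untreated and 4.93 and 6.13% after doxorubicin. The part of their RNA in its fall was not tested.

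The macrophage gate of the CD4/8 sort gave a further library of each treatment. There Tnfsf13b was at 0.339 untreated and 0.210 at 48 h, Tnfrsf12a at 0.464 and 0.397, and Tnfrsf26 at 0.0934 and 0.155. Each difference had the same sign as in the CD45 sort and was smaller. A fit of all 6 libraries with the sort as a covariate, added after the data were seen, gave adjusted p of 0.108, 0.0748 and 0.0848 for the 3 genes. That fit called Tnfsf4 higher (log2 change 2.89, adjusted p = 0.0303) and Tnfsf15 lower (-1.95, adjusted p = 0.0463). In the CD45 libraries alone these 2 ligands were at 0.00506, 0.00509, 0.0432 and 0.0212 for Tnfsf4 (adjusted p = 0.0608) and at 0.0329, 0.0316, 0.00925 and 0.00708 for Tnfsf15 (adjusted p = 0.0717). The treated and untreated CD45 libraries did not overlap for either, again a description only. Tnfsf4 entered these tests because its mean over the 4 CD45 libraries (0.0186) reached 0.1 of that in T cells (0.171). In the untreated libraries alone it lay under 0.1 of the T cell levels. The doxorubicin libraries thus admitted it, and its call is not independent of this filter. Tnfsf4 is high in T cells, and the part of T cells or their RNA in its rise was not tested. In the CD4/8 sort Tnfsf4 was at 0.00246 (1 UMI) untreated and 0.0547 at 48 h, and Tnfsf15 at 0.0295 and 0.00912. The summed level of the neutrophil marker list in the macrophage gate was 1.76 and 2.24 in untreated and 5.70 and 3.83 in doxorubicin libraries, with a UMI for all 8 markers in each, and Tnfrsf26 is high in neutrophils. The part of such cells or RNA in its rise was not tested.

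**Figure D3:**
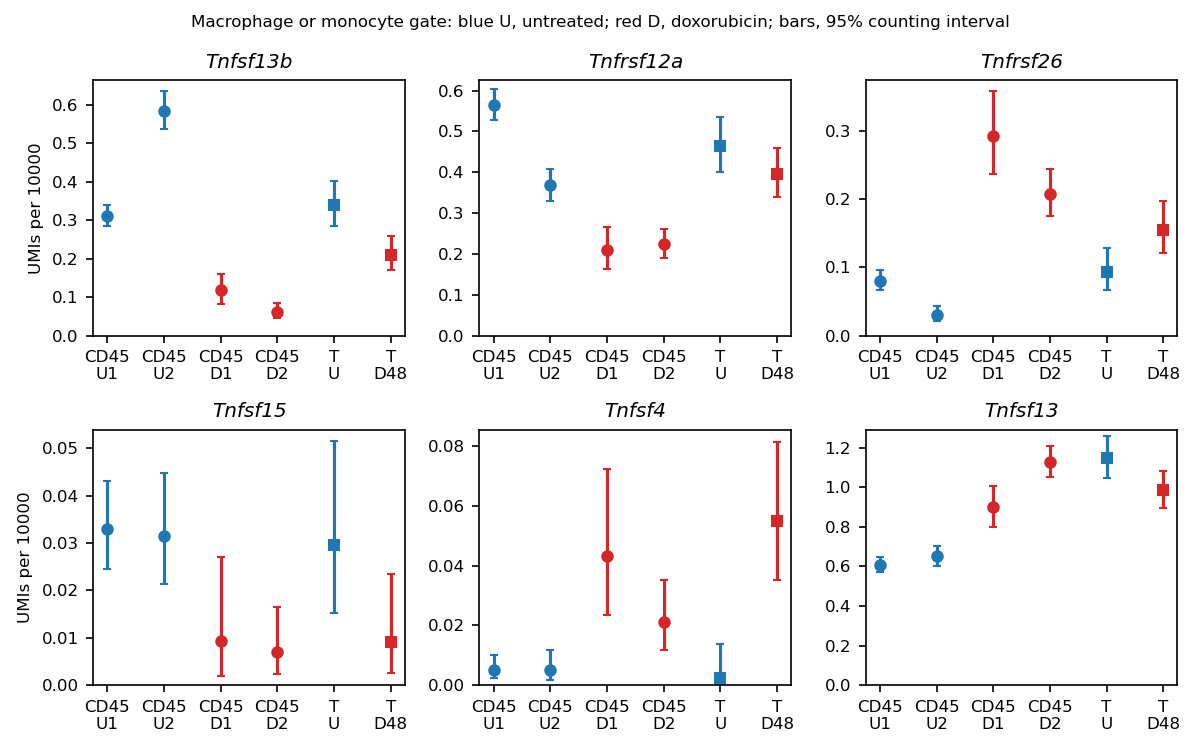
Levels of 6 genes in the macrophage or monocyte gate (UMIs per 10000, linear axis from 0) in the 4 CD45 libraries (circles) and in the untreated and 48 h libraries of the CD4/8 sort (squares), with bars for the 95% counting interval. Tnfsf13b is lower and Tnfrsf26 higher in both red CD45 points than in both blue ones, and the squares lie closer together (0.339 and 0.210 for Tnfsf13b).

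Among the other 13 members tested in macrophages, Tnfsf12 was at 0.428 and 0.443 untreated and 0.635 and 0.750 after doxorubicin (log2 change 0.62 ± 0.18, adjusted p = 0.0868). Its neighbour Tnfsf13 was at 0.610 and 0.651 against 0.900 and 1.13 (0.64 ± 0.19, adjusted p = 0.0878). Tnfsf9 was at 0.764 and 0.413 against 0.354 and 0.266 (-0.99 ± 0.32, adjusted p = 0.121). None of these passed the test. The groups did not overlap, but the share of all genes without overlap was not computed, so this adds nothing to the test. In the CD4/8 sort Tnfsf12 went the other way, at 0.688 untreated and 0.472 at 48 h, and so did Tnfsf13, at 1.15 and 0.988. Of 37 other pathway genes, Cd40 (-1.74 ± 0.24) and Nfkbie (-1.17 ± 0.18) fell and Eda2r (5.69 ± 1.04) rose. Whether the doxorubicin change itself differed between macrophages and another gate was tested as an interaction, also added after the data were seen. Called were 0 of 25 members against neutrophils, epithelial cells and T cells, at backgrounds of 0.0139, 0.341 and 0.0279% of 14360 genes by edgeR. Unadjusted p fell under 0.05 for 3, 4 and 1 of the members. The differences between gates are therefore not shown for any single member.

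In the T cell gate no member was called with doxorubicin in the CD45 libraries, where the background was 0% of 10081 genes and 540 genes had an unadjusted p under 0.05 by edgeR. The same was true of the 15 members tested with both sorts together (0% of 11056 genes, 1172 unadjusted). Of the 13 members tested in the CD45 sort 4 had an unadjusted p under 0.05, and DESeq2 called 7 genes there and no member. The lowest p belonged to Tnfsf4, the OX40 ligand, at 0.0624 and 0.0743 untreated and 0.361 and 0.185 after doxorubicin in the CD45 sort. In the CD4/8 sort it was at 0.0326 and 0.220. All 3 doxorubicin libraries lay above all 3 untreated ones, with a log2 change of 2.15 ± 0.33 over both sorts (adjusted p = 0.220, and 0.107 to 0.754 when 1 library was left out). DESeq2 on the same 6 libraries called it (adjusted p = 2.13e-05), and so did edgeR with no filter on low counts (0.00329). The T cell gate of untreated CD45 library 2 stood apart in macrophage markers, at 12.3 per 10000 against 1.36 to 3.87 in the other 3, and in B cell markers, at 4.47 against 0.0501 to 0.0588, with 10 of 10 and 6 of 7 markers detected and Pax5 at 0. Without that library the change of Tnfsf4 was 2.25 (adjusted p = 0.260).

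In the epithelial gate 12 members were tested and none was called, where 2.61% of all 12291 genes were. An unadjusted p under 0.05 was found for 6 of the 12. Tnfrsf11b was at 0.0320 and 0.0340 untreated and 0.223 and 0.113 after doxorubicin (log2 change 2.16 ± 0.43, adjusted p = 0.0538). In the CD4/8 sort it was at 0.0561 and 0.0596, so the difference of the CD45 sort was not seen there. DESeq2 (0.00102) and a fit without doxorubicin library 2 (0.0152) called it. Tnfrsf19 was at 0.634 and 0.382 against 0.179 and 0.272 (-1.34 ± 0.31, adjusted p = 0.0746), and at 0.363 against 0.128 in the CD4/8 sort. With both sorts it was called lower (-1.45, adjusted p = 0.00976), and every doxorubicin library lay below every untreated one. Tnfrsf13c, the BAFF receptor, was at 0.0277 and 0.0280 against 0 and 0.00560, and at 0.0165 against 0.00105 in the CD4/8 sort. With both sorts it was also called lower (-3.49, adjusted p = 0.0122), a fitted value that depends on the prior count because doxorubicin library 1 is at 0, which allows up to 0.0110 (3 counts). B or plasma cells, whose far higher levels of Tnfrsf13c are given below, are not among the gates that the 0.1 filter compares. They numbered 28 and 23 untreated and 1 and 5 after doxorubicin in the CD45 sort, and 2 in each of the 2 CD4/8-sorted libraries. The part of their RNA in this fall was not tested. Tnfsf10 was at 0.178 and 0.350 against 0.121 and 0.0742 in the CD45 sort, but at 0.115 against 0.209 in the CD4/8 sort, so its direction differed between sorts. The epithelial gate of doxorubicin library 1, with 73 cells, held neutrophil markers at 97.3 per 10000 against 0.395 to 2.55 in the other 3 libraries, with 7 of 8 markers detected and Cxcr2 at 0. Their part in these values was not tested. The call of Eda2r (4.85 ± 0.46, adjusted p = 0.0131) was the only 1 among 32 other pathway genes.

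T cells were divided further into regulatory cells (Foxp3 and Cd4 detected), CD4 conventional cells (Cd4 without Foxp3 or Cd8) and CD8 cells, and compared within the 6 libraries of the CD4/8 sort. A regulatory cell without a detected Foxp3 UMI falls outside the regulatory subset. Median depth was higher in regulatory (6927 to 20674 UMIs per cell) than in CD4 conventional cells (4475 to 9559.5) of each library. The part of detection and depth in the differences below was not tested. Of 16 members tested, 5 were called higher in regulatory than in CD4 conventional cells, all of them receptors, and 6 lower, all of them ligands, where 24.9% of all 10264 genes were called (12.7% higher and 12.2% lower). The median log2 difference was -0.46 over the 16 members and -0.01 over all genes. The anti-CTLA4 library held only 16 regulatory cells (0.592% of its T cell gate, against 4.83% in the IgG library). The test and the values below include it, and without it 9 members were called. Without the anti-PD1 library 6 were called. The share of all genes called in those fits is not given here, so the lower counts cannot be read as a trait of the family.

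Values are given in the order untreated, 48 h, IgG, anti-PD1, anti-CTLA4 and both antibodies. Tnfsf8, the CD30 ligand, was at 0.462, 1.20, 0.512, 0.281, 0.459 and 0.572 in regulatory cells and at 3.55, 3.76, 5.76, 2.71, 4.78 and 4.96 in CD4 conventional cells (log2 difference -2.99 ± 0.27, adjusted p = 2.99e-05). Its receptor Tnfrsf8 was at 0.179, 0.127, 0.167, 0.245, 0.337 and 0.241 in regulatory cells and at 0.0591, 0.0767, 0.0694, 0.0707, 0.0473 and 0.0674 in CD4 conventional cells (1.61 ± 0.28, adjusted p = 0.000339). The ligand was thus lower and the receptor higher in regulatory cells of all 6 libraries, without overlap. Tnfrsf9, the receptor CD137, ran over the 6 libraries from 4.70 to 7.14 in regulatory and from 2.39 to 4.33 in CD4 conventional cells (0.94 ± 0.26, adjusted p = 0.0227), again without overlap. Its call was lost without the 48 h, IgG, anti-PD1 or combined antibody library (adjusted p = 0.0560 to 0.0823).

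Tnfrsf13c (1.25 ± 0.37, adjusted p = 0.0173), Tnfrsf13b (0.44 ± 0.14, adjusted p = 0.0230) and Tnfrsf1b (0.34 ± 0.11, adjusted p = 0.0290) were the other receptors higher in regulatory cells. The call of Tnfrsf13c was lost without the IgG (0.0515) or combined antibody library (0.0612). That of Tnfrsf13b was lost without the anti-PD1 (0.108), anti-CTLA4 (0.0689) or combined antibody library (0.0641), and that of Tnfrsf1b without the IgG (0.118), anti-PD1 (0.0606) or anti-CTLA4 library (0.0844) and with no filter on low counts (0.0536). Among the ligands lower in regulatory cells, Tnfsf4 (-1.74 ± 0.31, adjusted p = 0.000801) ran from 0.0191 to 0.232 against 0.0685 to 0.373 in CD4 conventional cells. It was lower in 6 of 6 libraries although the ranges overlapped. Tnfsf13b, Tnfsf14, Tnfsf9 and Tnfsf10 had log2 differences of -1.77, -1.57, -1.08 and -0.80, and the call of Tnfsf9 was lost without the anti-PD1 library (0.0503). Of 41 other pathway genes 8 were higher and 12 lower, with the ligands Cd40lg (-3.50 ± 0.33) and Fasl (-1.72 ± 0.17) among the lower and Ripk3 (1.10 ± 0.15) among the higher.

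**Figure D4:**
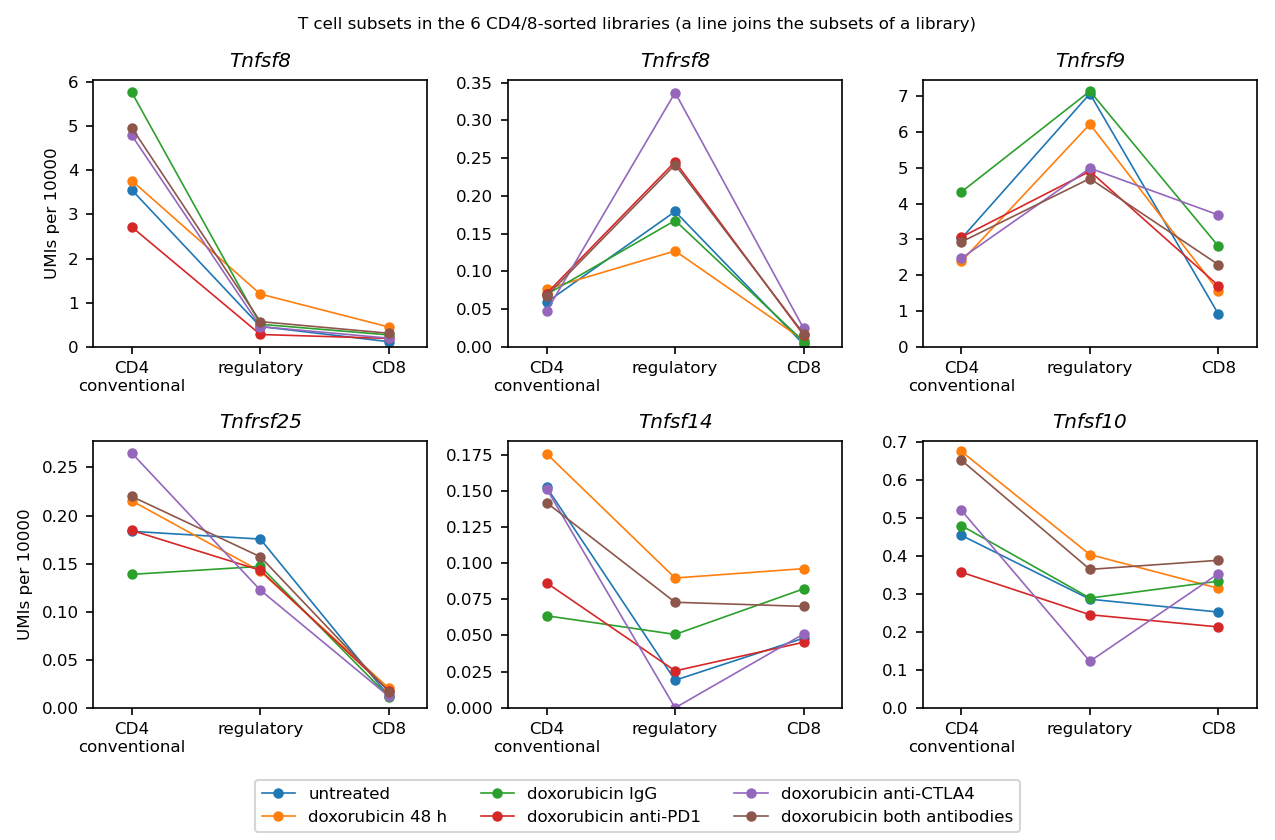
Levels of 6 genes (UMIs per 10000, linear axis from 0) in regulatory, CD4 conventional and CD8 T cells, with each line joining the subsets of 1 library of the CD4/8 sort. Tnfsf8 peaks in CD4 conventional cells of every library (2.71 to 5.76) and Tnfrsf8 and Tnfrsf9 are higher in regulatory than in CD4 conventional cells, whereas Tnfrsf25 is low in CD8 cells (0.0115 to 0.0204).

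Of the same 16 members, 9 were called lower and 2 higher in CD8 than in CD4 conventional cells, where 30.7% of all genes were called (14.1% higher and 16.5% lower). Tnfrsf25 was at 0.184, 0.215, 0.139, 0.185, 0.265 and 0.220 in CD4 conventional cells and between 0.0115 and 0.0204 in CD8 cells (-3.60 ± 0.17, adjusted p = 1.73e-11). Tnfsf8 was at 0.118, 0.450, 0.271, 0.192, 0.198 and 0.309 in CD8 cells, below all 6 CD4 conventional values above (-4.01 ± 0.25, adjusted p = 4.52e-07). Tnfrsf8 ran from 0.00337 to 0.0244 in CD8 cells (-2.34 ± 0.29, adjusted p = 3.48e-06), so both CD30 and its ligand were lowest in CD8 cells of each library. Also lower were Tnfrsf13b (-1.95 ± 0.13), Tnfsf9 (-1.56 ± 0.23), Tnfsf14, Tnfsf4, Tnfsf13b and Tnfsf10 (-0.88 to -0.62), with the call of Tnfsf13b lost without any 1 of 4 libraries (untreated, 48 h, IgG or anti-PD1, adjusted p = 0.0609 to 0.0882) and with DESeq2 (0.0522). Tnfrsf13c (1.37 ± 0.29, adjusted p = 0.00108) and Tnfrsf1a (0.88 ± 0.20, adjusted p = 0.00230) were higher in CD8 cells. Tnfrsf9 did not pass the test (-0.41 ± 0.25, adjusted p = 0.261), at 0.916, 1.56, 2.81, 1.71, 3.68 and 2.30 in CD8 cells. Of 41 other pathway genes 7 were higher and 20 lower, led by Cd40lg (-6.06 ± 0.27) and Lta (-2.81 ± 0.23).

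The 6 libraries of the CD4/8 sort also allow the treatments to be set side by side within T cells. With 1 library per group there is no test, and ratios below carry 95% intervals of counting error only, for pairs of libraries rather than for treatments. A member is counted where its ratio is at least 1.5-fold in either direction with the interval clear of 1, among members with 20 or more UMIs in the pair. Backgrounds are the percent of all genes meeting the same rule in either direction, with the numbers of genes higher and lower given beside them. Beside these ratios, the median depth of T cells was 8439, 6186.5, 8861, 5914, 10390.5 and 10284 UMIs per cell, in the order of groups above. The epithelial marker list summed to 2.29, 4.15, 0.990, 3.22, 1.95 and 0.752 per 10000 in the T cell gate, with a UMI for all 8 markers in each library.

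At 48 h after doxorubicin several T cell ligands stood above the untreated library. In the T cell gate 9 members were higher and 1 lower of 23 counted, against a background of 21.6% of genes (2426 higher and 544 lower). In CD8 cells 11 of 22 were higher and none lower (background 22.8%, 2557 genes higher and 396 lower). In CD4 conventional cells 3 of 14 were higher (background 16.7%, 1361 genes higher and 325 lower). Among all genes, too, more were higher than lower in each of these gates. Tnfsf4, the OX40 ligand, had the largest ratio in each subset, at 7.47 in CD8 cells (5.68 to 9.99), 4.12 in CD4 conventional cells (2.59 to 6.83) and 12.1 in regulatory cells (4.68 to 40.0, from 5 UMIs to 31). Regulatory cells had 3 of 11 members higher and none lower (background 15.8%, 941 genes higher and 434 lower). Tnfsf8 was 3.81-fold higher in CD8 cells (3.32 to 4.39), while in CD4 conventional cells it was at 3.55 and 3.76. Tnfsf9, the CD137 ligand, was 2.14-fold higher in CD8 (1.69 to 2.74) and 1.74-fold higher in CD4 conventional cells (1.31 to 2.32), and Tnfrsf9 1.71-fold higher in CD8 cells (1.62 to 1.80). Tnfsf14 was 2.0-fold higher in CD8 cells (1.58 to 2.54).

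The IgG library, taken after the antibody course and hence later than the 48 h library, had lower levels of several of these ligands. Against 48 h, 3 members were higher and 6 lower of 23 in the T cell gate (background 15.1%, 622 genes higher and 1472 lower). CD8 cells had 1 higher and 7 lower of 22 (14.8%, 460 genes higher and 1486 lower). CD4 conventional cells had 2 higher and 5 lower of 14 (13.2%, 320 genes higher and 965 lower). Regulatory cells had none higher and 3 lower of 12 (12.4%, 455 genes higher and 606 lower). Among all genes, too, more were lower than higher in each of these gates. Tnfsf4 was at 0.475 times its 48 h level in the T cell gate (0.417 to 0.540) and Tnfsf9 at 0.422 times (0.358 to 0.496). Tnfrsf9 moved the other way, 1.74-fold higher in the T cell gate (1.69 to 1.80), 1.80-fold in CD8 cells (1.73 to 1.87) and 1.81-fold in CD4 conventional cells (1.64 to 2.0). Time and IgG treatment cannot be told apart here.

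The 3 antibody groups were each compared with the IgG library, which they share. In the T cell gate anti-PD1 had 6 members higher and 3 lower of 22 (background 17.2%), anti-CTLA4 4 and 2 of 22 (11.9%), and both antibodies 3 and 3 of 22 (13.7%). All genes higher and lower there numbered 1473 and 875, 1005 and 622, and 692 and 1161, in the same order. Tnfsf4 in CD4 conventional cells was at 0.150 with IgG, 0.373 with anti-PD1, 0.270 with anti-CTLA4 and 0.365 with both. Its ratios to IgG were 2.48 (1.59 to 3.99), 1.79 (1.11 to 2.97) and 2.43 (1.57 to 3.89). Tnfsf9 in the same cells was at 0.110 with IgG and 0.314, 0.203 and 0.252 in the antibody groups, with ratios of 2.86 (1.72 to 4.99), 1.85 (1.06 to 3.36) and 2.29 (1.36 to 4.03). Both ligands were therefore higher in each antibody group than in the IgG library, which rests on 26 and 19 UMIs, and the 48 h library was at 0.282 for Tnfsf4 and 0.401 for Tnfsf9.

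Over CD4 conventional cells anti-PD1 had 3 members higher and 1 lower of 13 (background 14.3%), anti-CTLA4 4 and 1 of 12 (10.5%) and both antibodies 3 and 0 of 14 (10.1%). Over CD8 cells the counts were 6 and 4 of 22 (17.8%), 5 and 2 of 22 (14.9%) and 3 and 1 of 21 (12.6%). In regulatory cells they were 0 and 2 of 10 (12.6%), 0 and 0 of 9 (12.3%) and 1 and 3 of 12 (12.6%). Tnfrsf8 in CD8 cells, low throughout, was higher in each antibody group than with IgG, by 2.19-fold (1.17 to 4.18), 3.42-fold (2.03 to 6.06) and 2.42-fold (1.40 to 4.38). Tnfrsf9 went in different directions by group and subset. In CD8 cells it was at 0.609 times the IgG level with anti-PD1 (0.584 to 0.635), and in CD4 conventional cells at 0.572 times with anti-CTLA4 (0.510 to 0.640). With anti-CTLA4 the CD8 level was 3.68 against 2.81 with IgG, under the 1.5-fold rule. Tnfsf9 in CD8 cells was 2.04-fold higher with both antibodies (1.69 to 2.48), and Tnfsf13b 1.79-fold higher with anti-CTLA4 (1.45 to 2.21).

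Tnfrsf12a in the T cell gate was at 0.129, 0.200, 0.103, 0.219, 0.106 and 0.0781, highest in the 48 h and anti-PD1 libraries. These are also the 2 libraries with the most epithelial cells (22.1 and 26.2% of cells against 4.35 to 14.0%) and the highest epithelial marker sums in the T cell gate. Tnfrsf12a reached 1.88 to 3.68 in the epithelial gate of the CD4/8 sort, and the part of epithelial RNA in its T cell values was not tested.

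**Figure D5:**
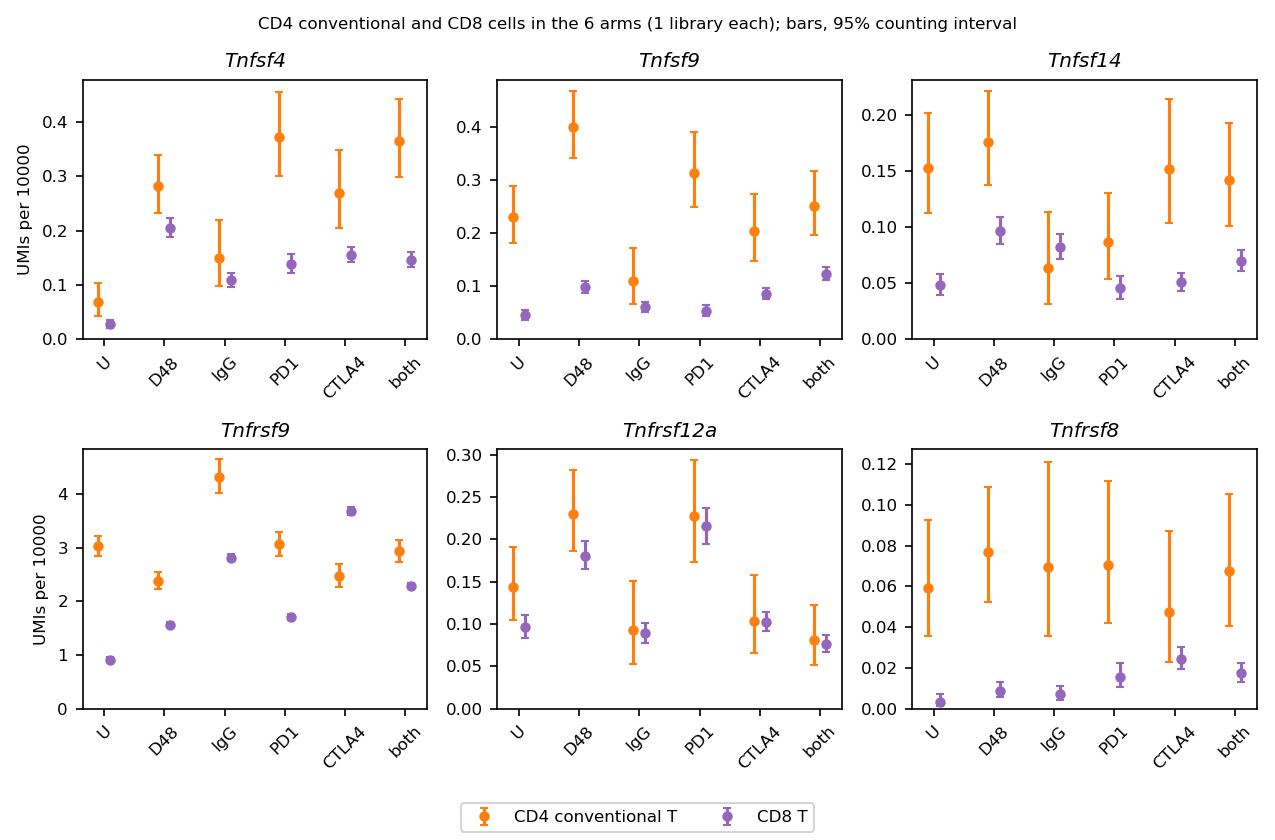
Levels of 6 genes (UMIs per 10000, linear axis from 0) in CD4 conventional (orange) and CD8 (purple) T cells of the 6 CD4/8-sorted libraries, 1 library per group, with bars for the 95% counting interval. Tnfsf4 is lowest in the untreated library in both subsets (0.0685 and 0.0274) and Tnfsf9 in CD4 conventional cells is lowest with IgG (0.110).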

How the data were processed

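Values were UMI counts per gene and cell, deposited by the authors as matrices of droplet libraries (Chromium Single Cell 3′ kit, per the labels' protocols). Reads were processed with Cell Ranger, Seurat and genome mm10, per the submitters' processing notes, with versions not given in the sources used here, nor whether counting used strand. Gene names came from the row order of the pooled table, since the matrices gave none. Summed counts by row (log scale) correlated between that table and each library at r = 0.954 to 0.984 in matching order and at most 0.354 when shifted. The 12 columns of a bulk table matched no sample and were not used.

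Cells with at least 500 UMIs, 200 genes and under 20% mitochondrial UMIs were kept, and no doublet caller was run. A cell entered 1 of 10 gates when it held at least 3 markers of that type and led the next type by 20 percentage points of markers detected. Ungated cells made up 3.51 to 26.7%, and 1.72 to 16.9% of gated cells lay near the limit. No cell profile was shared between libraries. Counts were summed per gate and library and tested with edgeR 4.0.16 (quasi-likelihood F test, TMM scaling, robust fit) in R 4.3.3 with limma 3.58.1, and Benjamini-Hochberg adjustment over all tested genes at 0.05. Every adjusted p is from that test unless DESeq2 (1.42.0) is named, and the SE is that of the fitted log2 value. Within a gate, a gene was tested for doxorubicin only where its mean level over the CD45 libraries of both treatments reached 0.1 of that in its highest gate. The script was tested on simulated data. Whole-library sums take all kept cells. Counting intervals are exact Poisson at 95% and cover counting error only. All members are named, and of 47 other pathway genes the called ones, at most 6 per comparison by adjusted p. The members and lists were chosen with earlier results of these data known. Alternatives were RLE scaling, DESeq2, no low-count filter, 1000 UMIs per cell, 4 markers per gate, each library left out, and replicate numbers as a block. The scripts used Python 3.11.15 with numpy 2.4.6, scipy 1.17.1 and pandas 2.3.3.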

Additional observations from a re-analysis of the deposited data

How the results depend on the processing

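Counts of called genes over whole CD45 libraries were 884, and 2506 with DESeq2, 2005 with no filter on low counts, 1593 with the replicate number as a block and 424 to 656 when 1 library was left out. In neutrophils they were 0, and 106, 211, 240 and 1 to 126 under the same settings. In macrophages they were 733, and 1613 with no filter, 1342 with the block and 10 to 1286 with 1 library left out. In T cells of the CD45 sort they were 0, and 7 with DESeq2, 96 with no filter, 1 with the block and 0 to 12 with 1 library left out. For T cells of both sorts they were 0, and 189 with DESeq2 and 94 with no filter. In epithelial cells they were 321, and 1016 with DESeq2, 1770 with no filter, 1200 with the block, 2136 with both sorts and 56 to 860 with 1 library left out. The other counts stayed within 1.5 times. With DESeq2, no filter and the block, called members went from 3 to 9, 7 and 6 over whole CD45 libraries and from 0 to 3, 6 and 3 in epithelial cells. In macrophages they went from 3 to 7 with no filter and 6 with the block. The cause of these shifts was not tested.

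Samples that share a replicate number share only the number (correlation of deviations 0.110 to 0.336 over 2 pairs), and the block ended the macrophage call of Tnfsf13b (adjusted p = 0.117). It added calls for Tnfrsf11b (0.00926), Tnfrsf13c (0.0367) and Tnfrsf19 (0.0318) in epithelial cells. Directions reversed only within neutrophils, where no value was called. Tnfrsf26 (0.01) went to -0.048 with RLE scaling, -0.050 with DESeq2, -0.026 with the stricter gate and -0.063 with both sorts. It ranged from -0.20 (without untreated library 1) to 0.24 when 1 library was left out, and Tnfsf14 (-0.18) from -0.47 to 0.33, with 0.08 without doxorubicin library 2. RLE scaling moved the median of all genes from -0.08 to -0.24 in the neutrophil contrast with other gates and from 0.11 to 0.31 in the epithelial one. Tests in dendritic and B or plasma cells were not run, since some libraries held under 30 such cells. Depth limits genes such as Tnfrsf17 and Tnfsf18, which were at or below 0.00925 per 10000 in all 4 gates of the CD45 libraries and reached at most 0.0160 in those gates elsewhere.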

Other observations

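Gates with few cells were not tested, and their levels (UMIs per 10000 with 95% counting intervals) describe single libraries. B or plasma cells held Tnfrsf13c, the BAFF receptor, at 2.97 (2.09 to 4.09, 28 cells) and 3.80 (2.80 to 5.04, 23 cells) in the untreated CD45 libraries and at 2.24 (1.70 to 2.90, 56 cells) in the pooled tumour table, whereas each of the 4 tested gates stayed at or under 0.0343 in the CD45 libraries and the pooled table, and the T cell gate at or under 0.0403 in the CD4/8 sort. NK cells held Tnfrsf9 at 1.77, 3.57 and 3.75 in CD45 untreated 1, untreated 2 and doxorubicin 2, and at 2.53 in the pooled table. Endothelial cells held Tnfrsf1a, the death domain receptor TNFR1, at 3.18 in CD45 doxorubicin 2 (18 cells) and 2.55 in the 48 h library of the CD4/8 sort (55 cells), and Tnfsf10, the ligand TRAIL, at 0.788 and 1.26. Fibroblasts of CD45 doxorubicin 2 (95 cells) held both Tnfsf12 (0.710) and its receptor Tnfrsf12a (0.864), and the pooled table gave 0.651 and 0.832. Dendritic cells of CD45 untreated 1 (29 cells) held Tnfsf9 at 0.905 (0.662 to 1.21) and Tnfsf4 at 0.315 (0.180 to 0.511).

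In the pooled table of 4016 unsorted cells, where treatment is unknown per cell, neutrophils held Tnfrsf23 at 1.46, Tnfrsf26 at 0.320 and Tnfsf14 at 0.336. Macrophages held Tnfsf12 at 0.804 and Tnfsf13 at 1.14, T cells held Tnfrsf9 at 2.41 and Tnfsf8 at 0.699, and epithelial cells held Tnfrsf12a at 0.775 and Tnfrsf19 at 0.396.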
